A study of Mus musculus with 14 samples.

Results

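The genes described here mark cholangiocytes, the epithelial cells that line the bile ducts, and the ductular reaction, in which duct-like cells multiply at the edge of the portal tracts. They were chosen by name as a list of 33 genes, each read from the probe with the highest mean signal among the probes assigned to that gene alone. Of these, 31 were among the 19938 genes tested, and Spp1 and Pkd2 were not analysed here. The study profiled liver RNA from female mice aged 14 months on Affymetrix arrays, with 3 wild-type arrays, 5 Mdr2-KO arrays and 6 Mdr2-KO/IL6-KO arrays. Mdr2-KO mice lack the transporter encoded by Abcb4, which moves phospholipid into bile, and Mdr2-KO/IL6-KO mice lack interleukin 6 as well and are also called the double knockout below. Tissue from both knockout groups was taken free of tumour, per the labels. The strain C57BL/6 is named for the wild type alone, so strain background and gene loss cannot be told apart, and the labels do not say how the alleles were made. They do not state that each array came from a separate mouse, and p-values therefore measure only the spread between these arrays, which may be technical.

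Cholangiocytes carry a simple-epithelium keratin skeleton, tight junctions, a primary cilium that faces the lumen, and channels that add bicarbonate and water to bile. Their fate during development depends on Notch signalling from the portal vein and on Sox9 and Sox4. Loss of phospholipid from bile leaves bile acids unbuffered, and Mdr2 deficiency is known for duct injury, fibrosis around ducts and a ductular reaction. Several of the genes are not limited to ducts: hepatocytes also make the keratins 8 and 18, E-cadherin, Notch2 and Slc4a2, and endothelial cells make Aqp1. In bulk tissue, more cells of a type and more RNA per cell cannot be told apart.

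Promoter sequence is shown for 3 genes on which the results below turn: the paired keratins Krt8 and Krt18, which rose in both knockouts, and Sox4, the gene that differed between the knockouts. Each line gives the 250 bases before the annotated start, 5′ to 3′ on the gene's own strand, from RefSeq on GRCm38.p6. The windows are chr15:102004343-102004592 on the minus strand for Krt8, chr15:102027966-102028215 on the plus strand for Krt18 and chr13:28953700-28953949 on the minus strand for Sox4. Capitals mark matches, on either strand, to 3 short motifs bound by factor families of this cell type, AGGAAG (ETS factors such as Ehf and Elf3), ACAANG (SOX factors) and TGGGAA (RBPJ, the Notch effector), and no base lay in more than 1 match.
Krt8: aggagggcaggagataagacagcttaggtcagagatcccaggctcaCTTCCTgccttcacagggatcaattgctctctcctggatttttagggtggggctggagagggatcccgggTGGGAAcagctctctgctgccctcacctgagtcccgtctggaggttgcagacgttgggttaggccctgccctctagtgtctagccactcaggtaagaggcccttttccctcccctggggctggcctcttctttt
Krt18: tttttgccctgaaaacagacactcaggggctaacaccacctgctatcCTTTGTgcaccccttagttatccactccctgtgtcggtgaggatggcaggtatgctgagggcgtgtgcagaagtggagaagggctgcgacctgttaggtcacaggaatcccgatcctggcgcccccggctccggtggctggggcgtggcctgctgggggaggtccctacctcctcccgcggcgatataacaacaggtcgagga
Sox4: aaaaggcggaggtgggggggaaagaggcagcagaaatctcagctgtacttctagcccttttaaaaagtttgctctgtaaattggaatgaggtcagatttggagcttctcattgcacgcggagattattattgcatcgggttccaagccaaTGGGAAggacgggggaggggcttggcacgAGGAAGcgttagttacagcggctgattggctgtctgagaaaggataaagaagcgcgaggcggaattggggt
Krt18 held 1 SOX motif match, while Krt8 and Sox4 each held 1 ETS and 1 RBPJ match. Windows were at hand for 21 of the 31 genes, 24 windows in all. Each of the 3 motifs matched in 8 of these 24 windows (33.3%), against 29.5% (ETS), 36.3% (SOX) and 21.6% (RBPJ) of all 32851 mouse windows of that length. Such a match is a description of letters in the window and shows no binding.

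Signals are log2 values as deposited. Array medians lay between 6.15 and 6.24, and hepatocyte markers averaged 12.20 to 12.48 on the arrays, so each tissue carried a strong hepatocyte signature. A background level of 5.48 was taken from the 95th percentile of 1027 olfactory receptor genes, which liver is not known to use. Abcb4, the targeted gene, was 10.36 ± 0.03 (SD, n = 3) in wild type, 9.01 ± 0.19 (n = 5) in Mdr2-KO and 9.05 ± 0.20 (n = 6) in Mdr2-KO/IL6-KO, lower in each knockout than on any wild-type array. Il6 was under the background level in all 3 groups (means 3.22, 3.07 and 3.48), so its loss could not be read. Across all tested genes 21% passed an adjusted p of 0.05 (limma, Benjamini-Hochberg) between Mdr2-KO and wild type, 12.3% between Mdr2-KO/IL6-KO and wild type and 8.76% between the knockouts. The splits into higher and lower genes moved with the scaling. Between Mdr2-KO/IL6-KO and wild type 56.7% of the genes that passed were higher, and 39% after each array was centred on its median. Between the knockouts the share was 57.6%, against 44.2% after quantile normalization and 28.6% after centring.

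Some of the duct genes rose in each knockout. In Mdr2-KO 13 of 31 were higher than in wild type and 0 were lower. Among those read above background in wild type, E-cadherin (Cdh1) and Cd24a had the largest differences, and Tspan8 rose from under the background level. Among all genes 8.89% were higher and 12.1% lower. In the double knockout 22 of 31 were higher than in wild type and 0 were lower, against 6.96% higher and 5.33% lower among all genes. At an unadjusted p under 0.05, limma gave 18 higher and 0 lower in Mdr2-KO and 26 higher and 0 lower in the double knockout. Of all 19938 genes, 2692 were higher and 4777 lower in Mdr2-KO at that level, and 2653 higher and 2436 lower in the double knockout. The median log2 difference of the 31 genes was 0.42 in Mdr2-KO (all genes −0.073) and 0.76 in the double knockout (all genes −0.018). In 14 genes every Mdr2-KO array lay above every wild-type array, a pattern found in 10.3% of all genes. The same held in 24 genes for Mdr2-KO/IL6-KO, against 8.57% of all genes. Both comparisons use the same 3 wild-type arrays.

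**Figure D1:**
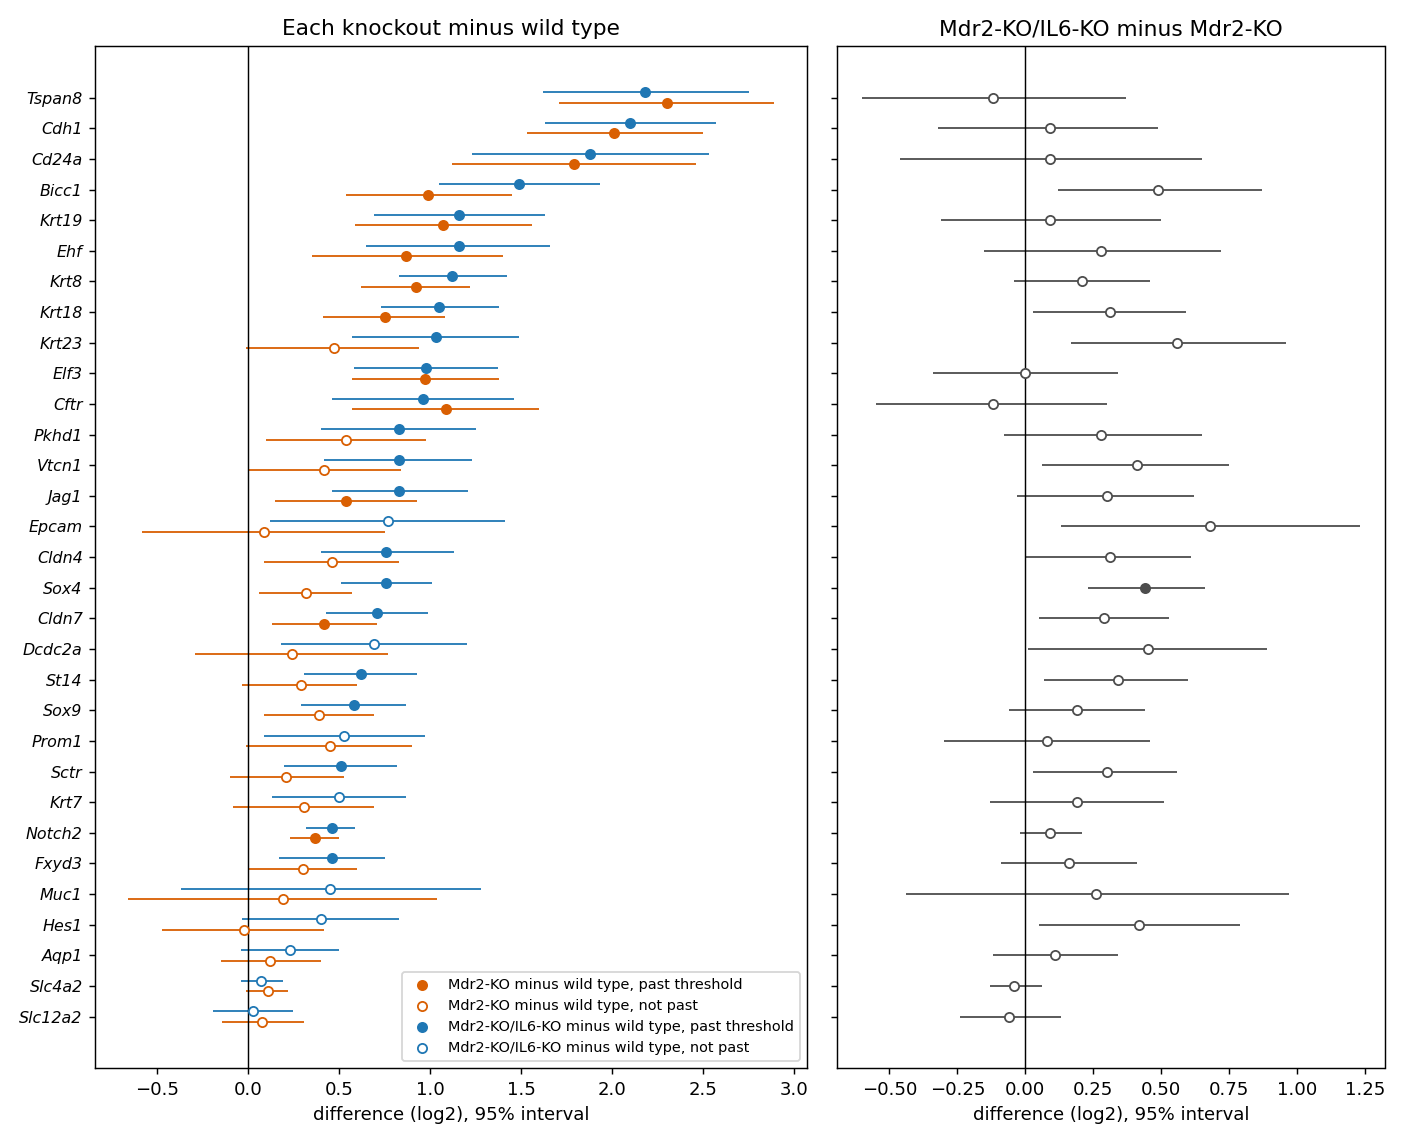
Log2 difference of each of the 31 duct genes with its 95% interval from limma, each knockout minus wild type on the left and Mdr2-KO/IL6-KO minus Mdr2-KO on the right; filled points passed an adjusted p of 0.05. The measured differences of Tspan8, Cdh1 and Cd24a lie farthest to the right in both knockouts, and Sox4 is the 1 filled point between the knockouts.

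The keratins form the intermediate filaments of duct cells, with type II keratins (Krt7, Krt8) pairing with type I keratins (Krt18, Krt19, Krt23). Of these 5 genes, 3 rose in Mdr2-KO and 4 in the double knockout. Krt19, a keratin that hepatocytes lack, read 5.68, 5.87 and 5.63 on the wild-type arrays and 6.69, 6.69, 6.14, 7.13 and 7.35 on the Mdr2-KO arrays. In the double knockout it ran from 6.30 to 7.30 with a median of 6.95. Every knockout array exceeded the highest wild-type array, and array 3 of Mdr2-KO and array 1 of Mdr2-KO/IL6-KO were the lowest of their groups. The difference from wild type was 1.07 ± 0.23 (SE, adjusted p = 0.00487) in Mdr2-KO and 1.16 ± 0.22 (adjusted p = 0.00285) in the double knockout.

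Krt8 read 11.19, 11.28 and 10.65 in wild type, 11.88, 12.05, 11.68, 12.06 and 12.11 in Mdr2-KO, and 11.91 to 12.45 (median 12.14) in the double knockout. Its partner Krt18 read 10.33, 10.53 and 9.73 in wild type, 10.79, 10.84, 10.95, 11 and 11.15 in Mdr2-KO, and 11.02 to 11.64 (median 11.24) in the double knockout. For both, no knockout array reached down to the wild-type range, and wild-type array 3 was the lowest of all. Krt8 rose by 0.92 ± 0.14 (adjusted p = 0.000582) in Mdr2-KO and by 1.12 ± 0.14 (adjusted p = 0.00011) in the double knockout. Krt18 rose by 0.75 ± 0.16 (adjusted p = 0.0048) and by 1.05 ± 0.15 (adjusted p = 0.000443). The genes of this pair are neighbours on chromosome 15 in GRCm38.p6. A Krt8 pseudogene is annotated, and signal shared with it could not be separated.

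Krt23 is a keratin known to be induced in injured liver. Its 3 wild-type arrays read 5.21, 5.32 and 4.99, all under the background level, so the size of its rise has only a lower bound. The Mdr2-KO arrays read 5.45, 5.71, 5.42, 5.76 and 5.90, and the Mdr2-KO/IL6-KO arrays ran from 5.89 to 7.15 with a median of 6.02. Array 6 of Mdr2-KO/IL6-KO stood well above the other 5, and no array of that group overlapped with wild type. The measured difference in the double knockout was 1.03 ± 0.22 (adjusted p = 0.00544), which against the background level is at least 1.66-fold higher. In Mdr2-KO it was 0.47 ± 0.22 (adjusted p = 0.137), which passed without array 6 of Mdr2-KO/IL6-KO (adjusted p = 0.0141); the fit shares 1 estimate of spread over the 3 groups. Krt7 was 0.31 ± 0.18 above wild type in Mdr2-KO (adjusted p = 0.223) and 0.50 ± 0.17 in the double knockout (adjusted p = 0.0769; 0.0469 without array 3 of Mdr2-KO).

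**Figure D2:**
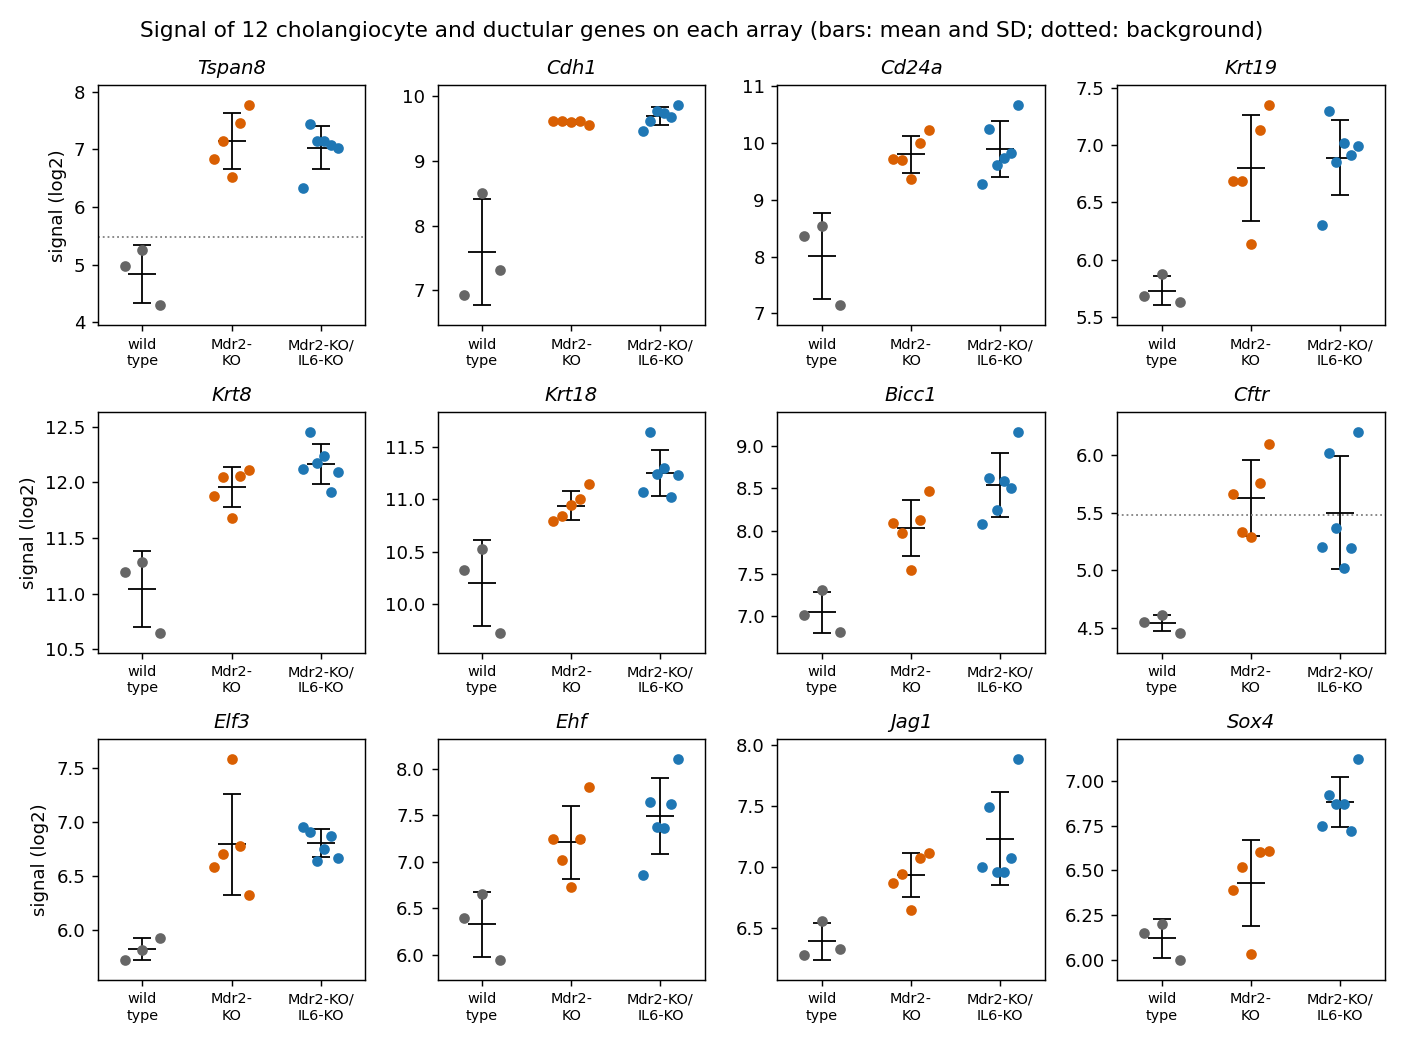
Log2 signal of 12 duct genes on each array, with 1 point per array, horizontal bars for group means and whiskers for the SD, each panel on its own axis; the dotted line is the background level of 5.48 where it falls within the panel. In Krt19, Krt8, Krt18, Tspan8, Cdh1 and Cd24a all knockout points lie above all wild-type points, and in Sox4 the Mdr2-KO/IL6-KO points lie above the Mdr2-KO points.

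Cell-cell adhesion genes were the next group. E-cadherin (Cdh1), the adhesion protein of epithelial contacts, read 6.93, 8.51 and 7.32 in wild type and 9.62, 9.62, 9.60, 9.61 and 9.55 in Mdr2-KO. It ran from 9.46 to 9.86 with a median of 9.71 in the double knockout. Wild type was widely scattered (SD 0.82, the largest of the 31 genes in that group), whereas the 5 Mdr2-KO arrays nearly coincided (SD 0.03, the smallest). No knockout array overlapped with wild type. Cdh1 rose 4.04-fold in Mdr2-KO (log2 difference 2.01 ± 0.23, adjusted p = 5.38e-05) and 4.28-fold in the double knockout (2.10 ± 0.22, adjusted p = 3.51e-05). The fit shares 1 estimate of spread over the 3 groups, so these SEs and p-values understate the scatter of the wild-type arrays.

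The claudins seal tight junctions. Cldn7 read 6.30, 6.51 and 6.62 in wild type, 6.63, 6.88, 6.63, 7.05 and 7.30 in Mdr2-KO, and 7.05 to 7.36 (median 7.14) in the double knockout. The Mdr2-KO arrays 1 and 3 lay only just above the highest wild-type array, while Mdr2-KO/IL6-KO stood clear of it. Cldn7 rose by 0.42 ± 0.14 (adjusted p = 0.0395) and by 0.71 ± 0.13 (adjusted p = 0.00253). The call in Mdr2-KO was lost under 7 of 23 alternatives, including without any 1 of the 3 wild-type arrays (adjusted p = 0.151, 0.0614 and 0.0581) and without Mdr2-KO array 2, 4 or 5 (0.0511, 0.082 and 0.0652). Cldn4 was 0.46 ± 0.18 above wild type in Mdr2-KO (adjusted p = 0.0724; 0.048 without its array 3 and 0.0481 without wild-type array 3) and rose by 0.76 ± 0.17 in the double knockout (adjusted p = 0.00785; 0.0518 without wild-type array 2). Epcam, an adhesion molecule of duct and progenitor cells, differed by 0.09 ± 0.31 (adjusted p = 0.858) in Mdr2-KO and by 0.77 ± 0.30 (adjusted p = 0.118) in the double knockout. In the latter group array 1 read 6.41, within the wild-type range of 6.35 to 7.00, and the other 5 read 7.53 to 7.82. Without that array the Epcam difference passed (adjusted p = 0.0142).

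Among 6 surface proteins, 2 rose in Mdr2-KO and 4 in the double knockout. Tspan8, a tetraspanin of epithelial membranes, read 4.97, 5.26 and 4.29 in wild type, every array under the background level. It read 6.83, 7.14, 6.52, 7.46 and 7.77 in Mdr2-KO, and 6.33 to 7.44 with a median of 7.11 in the double knockout. All 11 knockout arrays were above background and above wild type. The difference was 2.30 ± 0.28 (adjusted p = 7.59e-05) in Mdr2-KO and 2.18 ± 0.27 (adjusted p = 0.000114) in the double knockout. Against the background level, Tspan8 was at least 3.16-fold higher in Mdr2-KO and at least 2.92-fold higher in the double knockout.

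Cd24a, a glycosylated surface protein used to sort duct and progenitor cells, read 8.36, 8.54 and 7.14 in wild type. It read 9.72, 9.70, 9.37, 10.00 and 10.23 in Mdr2-KO and 9.27 to 10.67 (median 9.78) in the double knockout. No knockout array fell into the wild-type range, in which array 3 was the low one. Cd24a rose by 1.79 ± 0.32 (adjusted p = 0.00154) in Mdr2-KO and by 1.88 ± 0.31 (adjusted p = 0.000979) in the double knockout. The B7 family protein Vtcn1 differed by 0.42 ± 0.20 in Mdr2-KO (adjusted p = 0.132) and rose by 0.83 ± 0.19 in the double knockout (adjusted p = 0.00992; 0.0661 without wild-type array 2). St14, the membrane protease matriptase, differed by 0.29 ± 0.15 (adjusted p = 0.175) and rose by 0.62 ± 0.15 (adjusted p = 0.0106) in the same order. Prom1, a progenitor surface marker, and Muc1, a mucin of the luminal membrane, did not pass in either knockout (adjusted p from 0.117 to 0.752). Muc1 had the largest SD of the 31 genes in both knockouts, 0.59 and 0.76.

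Of 4 transcription factors, 2 rose in Mdr2-KO and all 4 in the double knockout. Elf3 and Ehf are epithelial ETS factors. Elf3 read 5.72, 5.81 and 5.92 in wild type, 6.58, 6.70, 7.58, 6.78 and 6.32 in Mdr2-KO, and 6.64 to 6.95 (median 6.81) in the double knockout. Its highest reading came from Mdr2-KO array 3, the array that was lowest for 22 of the 31 genes. Elf3 rose by 0.97 ± 0.19 (adjusted p = 0.00301) and by 0.98 ± 0.19 (adjusted p = 0.00286). Ehf read 6.40, 6.65 and 5.95 in wild type, 7.24, 7.02, 6.73, 7.25 and 7.80 in Mdr2-KO, and 6.86 to 8.10 (median 7.49) in the double knockout. No knockout array overlapped with wild type, although Mdr2-KO array 3 came within a short distance of wild-type array 2. Ehf rose by 0.87 ± 0.25 (adjusted p = 0.022; 0.0505 and 0.128 without wild-type array 1 or 3) and by 1.16 ± 0.24 (adjusted p = 0.00494).

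Sox4 and Sox9 are SOX factors needed for normal duct formation. Sox4 read 6.15, 6.20 and 6.00 in wild type, 6.39, 6.52, 6.03, 6.60 and 6.61 in Mdr2-KO, and 6.72 to 7.12 (median 6.87) in the double knockout. Mdr2-KO array 3 sat among the wild-type arrays, and every Mdr2-KO/IL6-KO array exceeded every array of the other groups. The Sox4 difference was 0.32 ± 0.12 in Mdr2-KO (adjusted p = 0.0722; 0.00841 without its array 3), and Sox4 rose by 0.76 ± 0.12 in the double knockout (adjusted p = 0.000695). Sox9 differed by 0.39 ± 0.14 in Mdr2-KO (adjusted p = 0.0604; 0.0361 without its array 1, and 0.0471 and 0.0421 without Mdr2-KO/IL6-KO array 3 or 6). It rose by 0.58 ± 0.14 in the double knockout (adjusted p = 0.0116; 0.0654 without wild-type array 1).

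The Notch group holds a ligand (Jag1), a receptor (Notch2) and a target (Hes1), and 2 of the 3 rose in each knockout. Jag1, whose loss in people causes a shortage of bile ducts, read 6.28, 6.56 and 6.33 in wild type. It read 6.87, 6.94, 6.65, 7.07 and 7.11 in Mdr2-KO and 6.96 to 7.88 (median 7.03) in the double knockout. All knockout arrays were above wild type, with arrays 2 and 6 of Mdr2-KO/IL6-KO well above the rest. Jag1 rose by 0.54 ± 0.18 (adjusted p = 0.0474) in Mdr2-KO, a call lost under 9 of 23 alternatives (adjusted p up to 0.148, without wild-type array 3), and by 0.83 ± 0.18 (adjusted p = 0.00574) in the double knockout. The other arrays whose removal ended the Mdr2-KO call were wild-type array 1 (adjusted p = 0.135), Mdr2-KO arrays 1, 2, 4 and 5 (0.0698, 0.0637, 0.0913 and 0.0836) and Mdr2-KO/IL6-KO array 5 (0.0538). Notch2 rose by 0.37 ± 0.06 (adjusted p = 0.00162) and by 0.46 ± 0.06 (adjusted p = 0.000279). Hes1, a repressor switched on by Notch, differed by −0.02 ± 0.21 (adjusted p = 0.948) in Mdr2-KO and by 0.40 ± 0.20 (adjusted p = 0.235) in the double knockout. It was low on Mdr2-KO arrays 1 and 2 (6.89 and 6.75) and between 7.42 and 7.74 on the other 3.

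Of 3 members tied to cystic disease or the cilium (Bicc1, Pkhd1 and Dcdc2a), 1 rose in Mdr2-KO and 2 in the double knockout. Bicc1, an RNA-binding protein, read 7.02, 7.31 and 6.82 in wild type, 8.10, 7.98, 7.54, 8.13 and 8.47 in Mdr2-KO, and 8.08 to 9.16 (median 8.55) in the double knockout. The knockout arrays all exceeded wild type. Bicc1 rose by 0.99 ± 0.21 (adjusted p = 0.0052) and by 1.49 ± 0.21 (adjusted p = 0.000312). It was the single member with a second probe, whose means of 5.91, 6.77 and 7.28 took the same order. Pkhd1, the fibrocystin gene of the cilium, differed by 0.54 ± 0.21 in Mdr2-KO (adjusted p = 0.0718; 0.0179 without its array 3 and 0.0479 without Mdr2-KO/IL6-KO array 6). It rose by 0.83 ± 0.20 in the double knockout (adjusted p = 0.0133; 0.0751 without wild-type array 3). Dcdc2a, a protein of cilium microtubules, differed by 0.24 ± 0.25 and 0.69 ± 0.24 (adjusted p = 0.501 and 0.0757).

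Of 6 transport and secretion genes, 1 rose in Mdr2-KO and 3 in the double knockout. Cftr, the chloride channel that drives bicarbonate secretion, read 4.55, 4.61 and 4.46 in wild type, 5.66, 5.33, 5.29, 5.76 and 6.10 in Mdr2-KO, and 5.02 to 6.20 (median 5.29) in the double knockout. All 11 knockout readings were above wild type, but only 3 of 5 and 2 of 6 exceeded the background level. The measured differences were 1.09 ± 0.24 (adjusted p = 0.0063) and 0.96 ± 0.23 (adjusted p = 0.0137; 0.0582 without wild-type array 3), and the bounds against background were at least 1.11-fold and at least 1.01-fold higher. Sctr, the secretin receptor that starts this secretion, differed by 0.21 ± 0.15 in Mdr2-KO (adjusted p = 0.305) and rose by 0.51 ± 0.14 in the double knockout (adjusted p = 0.0308). Fxyd3, a sodium pump regulator, differed by 0.30 ± 0.14 in Mdr2-KO (adjusted p = 0.137) and rose by 0.46 ± 0.14 in the double knockout (adjusted p = 0.0401). Sctr lost that call without any 1 wild-type array (adjusted p = 0.126, 0.0665 and 0.066) or without Mdr2-KO/IL6-KO array 2 (0.0592). Fxyd3 lost it under 11 of 23 alternatives, among them each wild-type array left out (0.151, 0.0794 and 0.08), Mdr2-KO array 1 or 4 (0.051 and 0.0501) and Mdr2-KO/IL6-KO array 2, 3, 4 or 5 (0.0724, 0.0561, 0.0679 and 0.0669).

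The water channel Aqp1, the anion exchanger Slc4a2 and the chloride cotransporter Slc12a2 did not pass in either knockout. Their differences from wild type were 0.12 and 0.23, 0.11 and 0.07, and 0.08 and 0.03 in Mdr2-KO and Mdr2-KO/IL6-KO (adjusted p from 0.17 to 0.912). The 95% interval for Slc4a2 ran from −0.01 to 0.22 and from −0.04 to 0.19, so changes beyond these bounds lie outside the intervals. Aqp1 passed in the double knockout without wild-type array 3 (adjusted p = 0.033). Slc4a2 lies between Abcb4 and Il6 on chromosome 5 in GRCm38.p6, and Prom1 and Cldn4 are on the same chromosome.

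**Figure D3:**
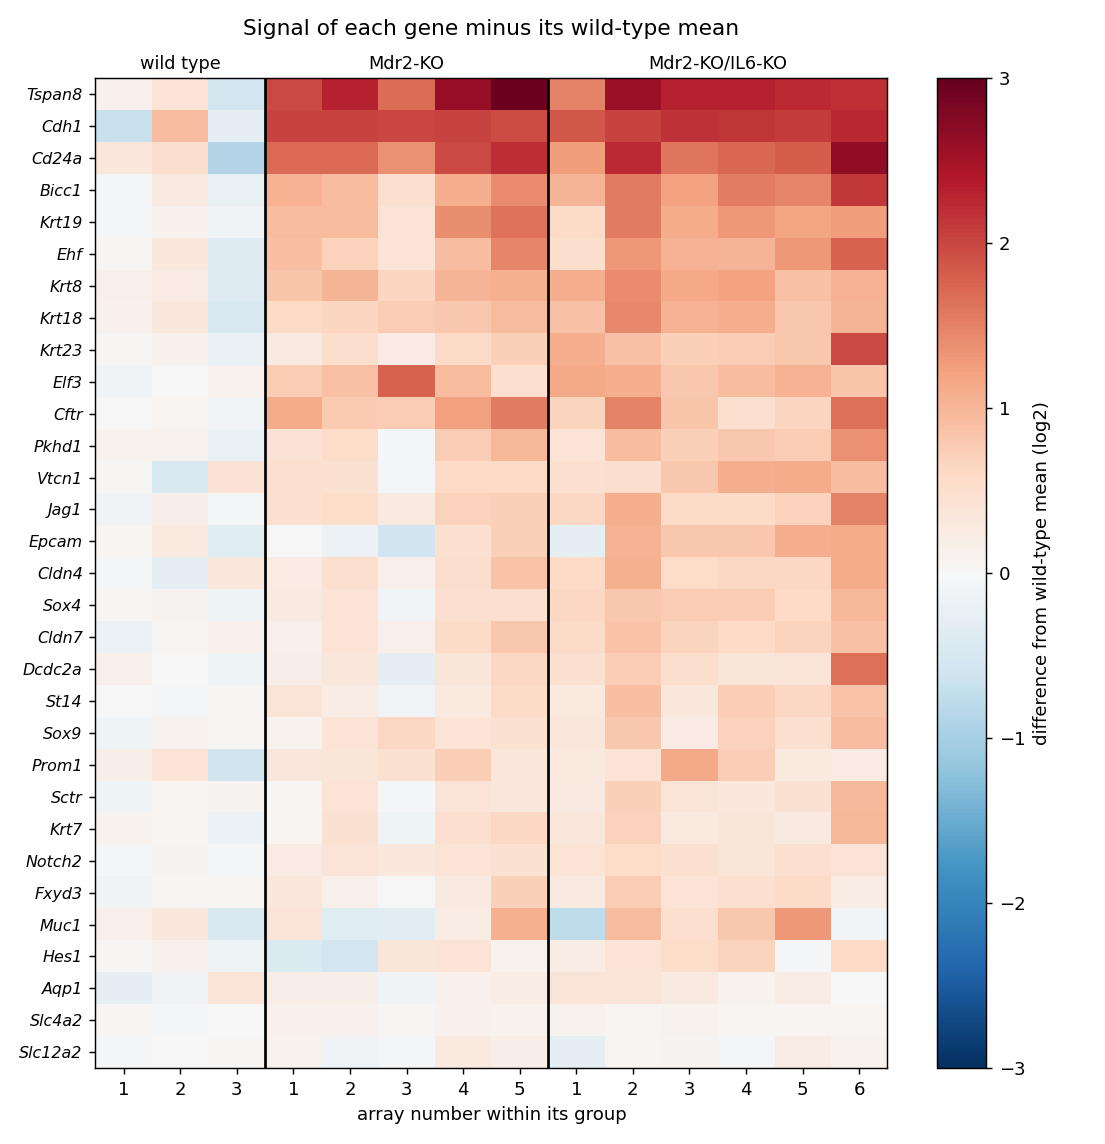
Log2 signal of each of the 31 duct genes on each of the 14 arrays minus the mean of the 3 wild-type arrays, red for higher and blue for lower, with genes ordered by their difference in the double knockout. Mdr2-KO array 3 is the lowest of its group in 22 rows but the highest for Elf3, and Mdr2-KO/IL6-KO array 6 carries the darkest cells for Krt23, Jag1 and Dcdc2a.

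The level of the duct genes differed between arrays of a group. The mean difference of the 31 genes from the wild-type mean was 0.53, 0.55, 0.35, 0.75 and 0.88 on the 5 Mdr2-KO arrays and 0.55, 1.01, 0.78, 0.82, 0.81 and 1.09 on the 6 Mdr2-KO/IL6-KO arrays. Mdr2-KO array 5 was the highest of its group for 23 genes and array 3 the lowest for 22. In Mdr2-KO/IL6-KO array 6 was the highest for 16 genes and array 1 the lowest for 14. Stellate cell and fibroblast markers were likewise lowest on Mdr2-KO array 3 (mean log2 signal 7.48) and highest on its array 5 (8.12). In the double knockout they were lowest on array 1 (7.66) and highest on array 4 (8.15), with 7.83 on array 6. On Mdr2-KO array 3, macrophage (8.42), endothelial (8.15), T cell (5.71) and B and plasma cell (5.81) markers were the lowest of the group too. Hepatocyte, mesothelial, neutrophil and proliferating cell markers were not. The part of any of these markers in the spread of the duct genes was not tested. The median SD of the duct genes was 0.27 in each knockout, against 0.12 and 0.11 over all genes, and 0.16 in wild type against 0.13. The least variable genes in a group were Cdh1 in Mdr2-KO and Slc4a2 in the double knockout, each with an SD of 0.03.

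Between the knockouts 1 of the 31 genes passed (3.23%), against 8.76% of all genes, 5.04% higher and 3.72% lower. That gene was Sox4, higher in the double knockout by 0.44 ± 0.10 (SE, adjusted p = 0.0157, 1.36-fold), with no overlap between the 5 and 6 arrays, a pattern seen in 4.4% of all genes. It passed under all 23 alternatives, with an adjusted p from 0.01 to 0.049, close to the threshold at most, and differences from 0.33 to 0.49. The other 30 genes did not pass, which does not show that they were alike. At an unadjusted p under 0.05, 11 genes were higher and 0 lower in the double knockout by limma, as were 3951 and 1819 of all 19938 genes. The differences ran from −0.12 to 0.68 with a median of 0.26, against 0.060 for all genes, and 27 of 31 were above 0, as were 65.7% of all genes. After quantile normalization or centring the median was 0.21 and 26 were above 0.

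Some of these differences depended on single arrays. Epcam was 0.68 ± 0.26 higher in the double knockout (95% interval 0.13 to 1.23, adjusted p = 0.105), and without its low array 1 it passed (adjusted p = 0.0189). Krt23 was 0.56 ± 0.19 higher (adjusted p = 0.0669), and it passed without the high array 6 of Mdr2-KO/IL6-KO (adjusted p = 0.0438). Bicc1 differed by 0.49 ± 0.18 (adjusted p = 0.0861) and Cldn7 by 0.29 ± 0.11 (adjusted p = 0.115), and without the high array 5 of Mdr2-KO both passed (adjusted p = 0.0486 and 0.0265). The 3 genes with the largest measured differences from wild type gave these differences between the knockouts: Tspan8 −0.12 (95% interval −0.60 to 0.37), Cdh1 0.09 (−0.32 to 0.49) and Cd24a 0.09 (−0.46 to 0.65). Differences of either sign up to these bounds are inside the intervals.

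Related gene lists were read beside the duct genes. Among all genes 8.89% were higher and 12.1% lower in Mdr2-KO, and 6.96% higher and 5.33% lower in the double knockout. Of 36 other biliary epithelial markers, 8 were higher and 2 lower in Mdr2-KO (27.8% called, against 21% of all genes). In the double knockout 11 were higher and 3 lower (38.9%, against 12.3%). Among those that rose were Gabrp, a subunit of an epithelial GABA receptor, Mmp7, a matrix protease of duct epithelium (1.72 and 1.92), Slc5a1, a sodium-glucose cotransporter (1.11 and 1.23), and Ccn1, a matrix signalling protein (0.73 and 1.44). Gabrp was under the background level on every wild-type array and has only lower bounds, at least 2.72-fold higher in Mdr2-KO and at least 2.99-fold higher in the double knockout. The markers called lower were Lgals4 (−0.71 and −0.58) in both comparisons and Krt80 (−0.37) in Mdr2-KO. In the double knockout Onecut1 (−0.95) and Onecut2 (−0.28) were lower as well. Slc10a2, the bile acid uptake transporter of the cholangiocyte luminal membrane, rose by 0.66 ± 0.19 in Mdr2-KO (adjusted p = 0.0226). It was lower in the double knockout than in Mdr2-KO, with a difference of −0.87 ± 0.16 (adjusted p = 0.00467). Ccn1 was higher in that comparison by 0.71 ± 0.19 (adjusted p = 0.0366). Of the 36 markers, 1 was higher and 1 lower between the knockouts (5.56% called, against 8.76% of all genes).

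Epithelial junction genes outside the set gave 10 higher and 1 lower of 31 in Mdr2-KO (35.5% called, against 21% of all genes). In the double knockout they gave 10 higher and 2 lower (38.7%, against 12.3%). The tight-junction genes Tjp3 (0.69 and 0.76), Ocln (0.64 and 0.58) and Cldn1 (0.51 and 0.76) rose in both comparisons, as did Marveld2 (0.52 and 0.55). Dsp, the desmosome plaque protein, rose by 0.30 and 0.65 and was higher in the double knockout than in Mdr2-KO by 0.35 ± 0.08 (adjusted p = 0.0191). Of the 31 junction genes, 2 were higher and 0 lower between the knockouts (6.45% called, against 8.76% of all genes). Among 16 other keratins and keratin partners, 2 were higher and 2 lower in Mdr2-KO (25% called). In the double knockout 2 were higher and 1 lower (18.8%). The plaque protein Ppl was at 0.61 in Mdr2-KO and 0.93 in the double knockout. Most of the list lay the other way. In Mdr2-KO 2 of the 16 were above 0 (median −0.15, all genes −0.073), and in the double knockout 6 were (median −0.05, all genes −0.018).

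Of 31 other genes of the Notch pathway, 2 were higher and 3 lower in Mdr2-KO (16.1% called, against 21% of all genes). In the double knockout 4 were higher and 2 lower (19.4%, against 12.3% of all genes). Psen2, a subunit of the protease that releases active Notch, rose by 0.42 and 0.38, while Lfng, an enzyme that modifies Notch receptors, was lower by differences of −0.53 and −0.39. Hes6 was lower too (−0.53 and −0.49). Between the knockouts 2 of the 31 were higher and 0 lower (6.45% called, against 8.76% of all genes). The Notch targets Hey1 (0.40 ± 0.09, limma adjusted p = 0.0161) and Heyl (0.21 ± 0.06, adjusted p = 0.0388) were higher in the double knockout than in Mdr2-KO. Neither passed against wild type. Hey1 differed by −0.25 in Mdr2-KO (adjusted p = 0.116) and 0.15 in the double knockout (adjusted p = 0.42). Heyl differed by −0.15 (adjusted p = 0.147) and 0.07 (adjusted p = 0.627) in the same order.

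Of 28 polycystic and primary cilium genes, 6 were higher and 4 lower in Mdr2-KO (35.7% called, against 21% of all genes). In the double knockout 3 were higher and 1 lower (14.3%, against 12.3%). Glis3, a factor whose loss gives cystic disease, was at 0.62 in Mdr2-KO and 1.02 in the double knockout, and Wdr19 was at 0.36 in each. Sec63 was lower in both (−0.22 and −0.25), and Ift20 was lower in Mdr2-KO (−0.38, limma adjusted p = 0.0296). Of 29 genes of duct bicarbonate and fluid transport, 4 were higher and 4 lower in Mdr2-KO (27.6% called). In the double knockout 3 were higher and 3 lower (20.7%). Sstr2, the somatostatin receptor that restrains duct secretion, rose by 0.85 and 0.99, and Vipr1, a receptor for a secretion-stimulating peptide, was lower (−0.45 and −0.65). Of 34 ductular reaction signals, 7 were higher and 4 lower in Mdr2-KO (32.4% called), and 8 higher and 3 lower in the double knockout (32.4%). Tgfb2 rose by 0.90 and 1.28, and the leukaemia inhibitory factor receptor Lifr (−0.98 and −1.27) and the stem cell marker Lgr5 (−0.96 and −1.09) fell. Between the knockouts 2 of these 34 signals were higher and 1 lower (8.82% called, against 8.76% of all genes). Egfr was lower in the double knockout than in Mdr2-KO by a difference of −0.91 ± 0.20 (adjusted p = 0.0152), and Ccl2, a monocyte attractant, was higher by 0.96 ± 0.26 (adjusted p = 0.0344).

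**Figure D4:**
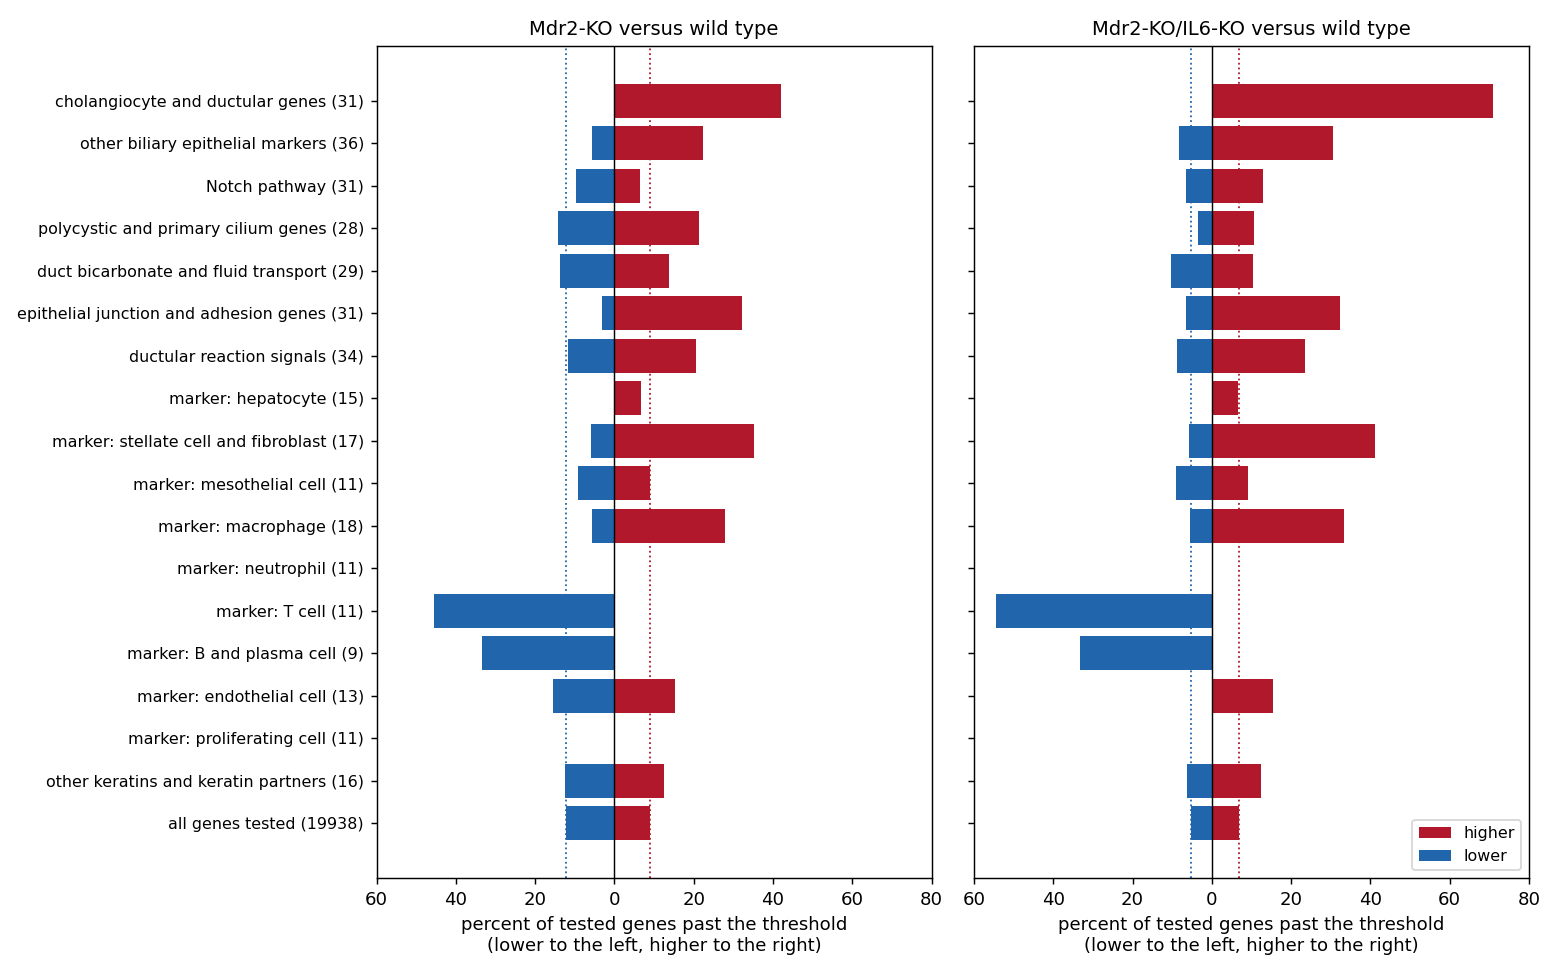
Percent of each gene list that passed an adjusted p of 0.05, higher to the right and lower to the left of 0, in each knockout against wild type, with the number of genes tested in brackets and dotted lines at the level of all 19938 genes. The bar for the 31 duct genes reaches 41.9% in Mdr2-KO and 71% in the double knockout with none to the left.

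Markers of other cell types were read in the same comparisons, and their part in the duct gene results was not tested. Among all genes 8.89% were higher and 12.1% lower in Mdr2-KO, and 6.96% higher and 5.33% lower in the double knockout. Stellate cell and fibroblast markers gave 6 higher and 1 lower of 17 in Mdr2-KO and 7 higher and 1 lower in the double knockout. Their mean log2 signal was 7.43 to 7.55 on the wild-type arrays, 7.48 to 8.12 on the Mdr2-KO arrays and 7.66 to 8.15 on the Mdr2-KO/IL6-KO arrays. Macrophage markers gave 5 higher and 1 lower of 18, then 6 higher and 1 lower (means 8.22 to 8.49, 8.42 to 8.78 and 8.62 to 8.88). T cell markers gave 5 lower of 11, then 6 lower, and their mean was 6.86 on wild-type array 2 against 6.25 and 6.26 on the other wild-type arrays. That mean was 5.71 to 6.17 on the Mdr2-KO arrays and 5.83 to 6.21 on the Mdr2-KO/IL6-KO arrays, below every wild-type array. B and plasma cell markers gave 3 lower of 9 in each knockout. Their mean was 6.70 on wild-type array 2 against 6.17 and 6.11 on the other wild-type arrays. It was 5.81 to 6.23 on the Mdr2-KO arrays and 5.80 to 6.33 on the Mdr2-KO/IL6-KO arrays. Mesothelial markers gave 1 higher and 1 lower of 11 in each knockout (18.2% called, against 21% and 12.3% of all genes). Endothelial markers gave 2 higher and 2 lower of 13, then 2 higher. Of 15 hepatocyte markers 1 was higher in each knockout (6.67%). Of 11 markers of proliferating cells 0 passed limma against wild type in either direction, with 1 higher at an unadjusted p under 0.05 in Mdr2-KO and 0 in the double knockout.

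Neutrophil markers averaged 8.53 on Mdr2-KO array 3 and 7.74 on Mdr2-KO/IL6-KO array 2, against 5.62 to 6.00 on the other knockout arrays and 5.70 to 5.83 in wild type. None of these 11 markers passed limma in any comparison, with 1 higher in Mdr2-KO at an unadjusted p under 0.05 and 0 in the other comparisons. Without those arrays, a choice made after the data were seen, 16 duct genes were higher in Mdr2-KO, 22 in the double knockout and 1 between the knockouts. Without wild-type array 2 the counts were 12, 18 and 1.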

How the data were processed

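The deposited table held log2 signals of 35557 probes on 14 arrays, which the authors produced by RMA in Partek according to the submitters' processing notes. Their versions and genome build are not given in the sources used. RMA's background correction can compress low signals, so differences near the background level may be understated, which was not tested here. Of the probes, 21789 named 1 gene, 1621 named several and 12147 named none in the platform annotation, and 21698 were matched to RefSeq genes (GRCm38.p6) by identifier. For each of 19938 genes the single-gene probe of highest mean was kept. No pair of arrays held identical values, and scanner intensities were not used here. The number of arrays limits the precision.

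All 3 groups were fitted together in limma 3.58.1 (R 4.3.3) with empirical Bayes moderation, and p-values were adjusted over all genes by Benjamini-Hochberg, with 0.05 as threshold. The procedure was tested on simulated data. Detailed values were given for the 12 members of largest called difference in each comparison with wild type. The same held for each member called between the knockouts or called lower. These values were each array of wild type and Mdr2-KO, and the range and median of Mdr2-KO/IL6-KO. Up to 3 genes of largest called difference were named from each related list, as was every other biliary epithelial marker called lower than in wild type. Members and lists were chosen with earlier results of these data known. Alternatives were quantile normalization, centring, a filter on low genes, the mean of a gene's probes, trend and robust moderation, array weights, the 2 groups alone, and arrays left out. Sequence motifs were searched on both strands with Python 3.11.15, and figures were drawn with matplotlib 3.10.9.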

Additional observations from a re-analysis of the deposited data

Results flagged for a closer look

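In 62 sets of readings (31 duct genes in each of the knockout groups), 7 had a single array far from the rest, judged by its gap to the nearest array over the whole range. Chance gives about 1 in 20 such sets when they are independent. These sets share the same arrays, so their count cannot be read as an excess over chance. The wild-type group of 3 was not examined. Mdr2-KO array 3 was the low array for Aqp1 (8.76, others 9 to 9.09), Slc4a2 (7.87, others 7.95 to 7.98) and Vtcn1 (6.38, others 6.88 to 7.03), and it is the array on which neutrophil markers averaged 8.53. Mdr2-KO/IL6-KO array 6 was the high array for Krt23 (7.15, others 5.89 to 6.27) and Dcdc2a (7.73, others 6.43 to 6.81). Mdr2-KO/IL6-KO array 1 was low for Epcam (6.41, others 7.53 to 7.82). Mdr2-KO array 5 was low for Cdh1 (9.55, others 9.60 to 9.62), in a group whose whole range was small.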

How the results depend on the processing

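Counts of duct genes that passed were recomputed under 23 alternatives, of which 14 left out 1 array each. With 1 array left out they ran from 10 to 16 in Mdr2-KO against wild type, from 18 to 23 for the double knockout (Mdr2-KO/IL6-KO) and from 1 to 3 between the knockouts. The count between the knockouts was 3 without Mdr2-KO array 5, and 2 when array 1 or array 6 of the double knockout was left out. Under the other 9 alternatives the counts were 12 to 16, 20 to 23 and 1. In Mdr2-KO 10 of the 13 genes passed under every alternative in which they were tested, in Mdr2-KO/IL6-KO 15 of 22, and between the knockouts Sox4. Cftr was not tested when the third of genes with the lowest mean was left out. Of 2136 recomputed gene differences 39 lost their call, 27 gained one and 0 called differences changed sign. The alternative without array 3 of Mdr2-KO and array 2 of the double knockout was chosen after seeing the data. No paired analysis was possible because the labels give the groups no shared replicate numbers. Signals under the background level limit Krt23, Tspan8 and Cftr in wild type, and Gabrp and Itgb6 outside the set.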

Other observations

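Some biliary and epithelial markers outside the duct set were lower. Lgals4, an epithelial galectin, was lower than in wild type by differences of −0.71 ± 0.15 (SE, limma adjusted p = 0.0048) in Mdr2-KO and −0.58 ± 0.15 (adjusted p = 0.0161) in Mdr2-KO/IL6-KO. Onecut1 and Onecut2, transcription factors of liver and duct development, differed by −0.95 (adjusted p = 0.0081) and −0.28 (adjusted p = 0.0472) between Mdr2-KO/IL6-KO and wild type. Higher there were Anxa13, an epithelial annexin (0.95, adjusted p = 0.0183), and Itgb6, an integrin of injured epithelium (adjusted p = 0.0389). Itgb6 was under the background level on every wild-type array, and against that level it was at least 1.20-fold higher. These 5 genes were chosen after their values were seen.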
